A study of Mus musculus with 2 samples.

Results

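The Tfh-like cells are spleen T cells in which at least 2 of 6 genes that mark follicular helper T (Tfh) cells, Cxcr5, Bcl6, Il21, Tox2, Sostdc1 and Ascl2, had at least 1 transcript count (unique molecular identifier, UMI). There were 440 such cells among 26581 cells that passed the filters: 184 of 13747 in the LatY136F library and 256 of 12834 in the LatY136F CD45-KO library. Both libraries came from CD3+CD5+ cells sorted from spleens of mice aged 8 to 9 weeks. One group carried the LatY136F mutation, a point change in the adaptor protein LAT that removes its docking site for phospholipase C gamma. The other carried the same mutation together with a knockout of CD45, a phosphatase of the leukocyte surface whose gene is Ptprc. No group with normal LAT was analysed here. Neither the making of the CD45 knockout nor the number of mice per library is given in the sources used here. With each genotype at 1 library, no difference between genotypes has a replicate check, and no test was run. Intervals are exact 95% intervals that cover counting error only.

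Follicular helper T cells are CD4+ T cells that enter B cell follicles and help B cells in germinal centres. Bcl6 is their lineage-defining transcription factor, and Cxcr5 is the chemokine receptor that guides them into the follicle. Il21 and Il4 encode the main cytokines through which they act on B cells, and sustained Pdcd1 and Icos on the surface is their usual hallmark. LatY136F mice are known for a lymphoproliferative disease of Th2-type CD4+ T cells with strong B cell help.

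The filtered libraries held 35278227 UMIs (LatY136F) and 29256589 UMIs (CD45-KO), with medians of 2155 and 1991.5 UMIs per cell. Tfh-like cells were deeper than the rest. Their median was 3592 UMIs in LatY136F against 2144 in the remaining cells, and 3519 against 1977 in CD45-KO. A rule that asks for detected UMIs selects deeper cells, and values with the remaining cells weighted to the same depth are given for the lists and genes that moved most. The libraries shared 223 cell barcodes among kept cells and 0 among the Tfh-like cells. The knocked-out gene, Ptprc (chr1:138062861-138175708, GRCm38), was still counted in the Tfh-like cells of both libraries, at 2319 CPM (UMIs of the gene scaled to a total of 1e+06) in LatY136F and 1937 CPM in CD45-KO. The part of Ptprc that was removed is not given here, and counts of 3' transcript ends outside it do not check the label. Lat was at 285 and 269 CPM, and a point mutation leaves no trace in such counts.

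The cells were chosen by the measured UMIs of the 6 rule genes, whose values therefore only describe that choice. Sostdc1, a secreted antagonist of bone morphogenetic protein and Wnt signals, had the highest summed level, 984 CPM in the LatY136F Tfh-like cells and 1345 CPM in the CD45-KO ones. Tox2, a transcription factor of the Tfh programme, followed with 391 and 356 CPM. Cxcr5 was at 203 and 271 CPM, Bcl6 at 183 and 269 CPM, and Il21 at 188 and 221 CPM. Ascl2, a transcription factor upstream of Cxcr5, was lowest at 56.2 and 55.2 CPM. Tox2 was detected in 135 of the 184 LatY136F cells and Sostdc1 in 130, whereas Sostdc1 (190 of 256) led in CD45-KO, ahead of Tox2 (153), Bcl6 (146) and Cxcr5 (134). The commonest pair was Tox2 with Sostdc1, present together in 92 LatY136F cells (50%) and 111 CD45-KO cells (43.4%). All 6 genes were found in 4 LatY136F cells and 7 CD45-KO cells.

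Cells just outside the rule, with 1 of the 6 genes, numbered 716 in LatY136F and 454 in CD45-KO, against 80 and 105 cells just inside it with exactly 2. Tox2 alone accounted for 317 of the 716 LatY136F cells and Bcl6 alone for 206 of the 454 CD45-KO cells. Genes outside the rule separated the classes. Pdcd1, an inhibitory receptor, was at 62.2 CPM in LatY136F cells with 1 rule gene and at 245 CPM with 2, and at 74.3 and 441 CPM in CD45-KO. Btla, another inhibitory receptor of Tfh cells, went from 89.9 to 440 CPM and from 142 to 584 CPM over the same step. Il7r, the interleukin-7 receptor chain of resting T cells, stood at 749 and 231 CPM in LatY136F and at 1025 and 334 CPM in CD45-KO. The cells with a single rule gene therefore lay between the cells with none and those with 2 for all 3 genes in both libraries.

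**Figure D1:**
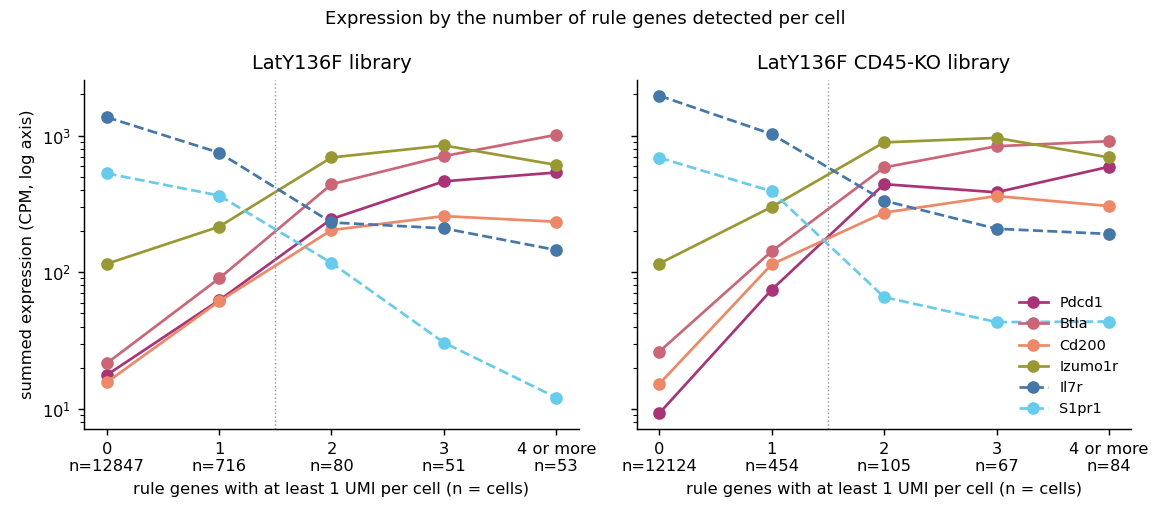
Summed expression in CPM (log axis) of 4 genes of Tfh cells (Pdcd1, Btla, Cd200, Izumo1r, solid lines) and of Il7r and S1pr1 (dashed lines), by the number of rule genes with at least 1 UMI per cell, for the LatY136F library (left) and the LatY136F CD45-KO library (right). The dotted line is the selection threshold: Pdcd1 was at 17.6 and 9.26 CPM in cells with none of the rule genes, and at 537 and 591 CPM in cells with 4 or more.

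Outside the rule genes, the Tfh-like cells of both libraries carried the surface genes of Tfh cells at high levels. Pdcd1 stood at 391 CPM in the LatY136F Tfh-like cells and at 21.3 CPM in the remaining cells, a log2 ratio of 4.20. In CD45-KO it stood at 480 and 12.9 CPM, a log2 ratio of 5.22. UMIs of Pdcd1 were found in 70.7% of LatY136F Tfh-like cells and 4.12% of the remaining cells, and in 75.4% and 2.15% in CD45-KO. With every cell thinned to 1000 UMIs these shares were 31.7% and 1.60%, and 38.7% and 1.07%. Of 18 listed genes of Tfh cells, mostly surface and secreted ones, 11 were at least 1.5-fold higher in the Tfh-like cells of both libraries and 2 were lower. The list also holds Rgs16, which is neither surface nor secreted. Among all 10757 genes that had enough counts, 14.4% were at least 1.5-fold higher in both libraries and 8.33% were lower. With the counting intervals also required to lie beyond 0 in both, these were 9.68% and 5.99% of all genes, and 11 and 1 of the 18. The median log2 ratio of the list was 1.88 in LatY136F and 2.26 in CD45-KO, beside 0.09 and 0.09 over all genes. Depth of the remaining cells matched to the Tfh-like cells left the list's medians at 1.89 and 2.12.

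Among those surface genes, Btla stood at 683 CPM against 27.1 CPM in LatY136F and at 762 against 32.6 CPM in CD45-KO. Cd200, a ligand for an inhibitory receptor on myeloid cells, stood at 227 against 19.3 CPM and at 306 against 20.7 CPM. Izumo1r, the T cell folate receptor family member FR4, stood at 709 against 123 CPM and at 837 against 126 CPM. All 3 were far above the remaining cells in both libraries. With depth matched, the log2 ratio of Cd200 in CD45-KO was 3.11 in place of 3.89. Tnfsf8, the ligand of CD30, was among the most abundant of the list, at 985 CPM (LatY136F) and 1192 CPM (CD45-KO) against 112 and 146 CPM. Icos, the costimulatory receptor that Tfh cells depend on, was closer to the remaining cells, at 822 against 556 CPM in LatY136F and 1092 against 330 CPM in CD45-KO, so it passed 1.5-fold in CD45-KO only. Cd40lg, the ligand through which helper T cells activate B cells, stood at 133 against 99.1 CPM and 161 against 101 CPM, and Slamf6 at 221 against 145 CPM and 264 against 126 CPM. Cd84 was near the remaining cells in both libraries, with log2 ratios of -0.02 and 0.18. Trat1, an adaptor of the T cell receptor complex, and Matn2, with 4 and 5 UMIs, were the 2 members of the list that were lower. Trat1 stood at 221 against 1025 CPM and 77.4 against 532 CPM.

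Of 14 regulators of the Tfh programme, 8 were at least 1.5-fold higher in both libraries and 2 were lower, with median log2 ratios of 0.96 and 0.75. Pou2af1, a transcriptional coactivator best known from B cells, stood at 160 CPM against 2.93 CPM in LatY136F and at 156 against 8.54 CPM in CD45-KO. With depth matched, its CD45-KO log2 ratio was 2.78 in place of 4.19. Tox stood at 390 against 43.4 CPM and 506 against 50.7 CPM, and Sh2d1a, which encodes the adaptor SAP needed for stable contact with B cells, at 195 against 39.9 CPM and 257 against 33.8 CPM. Nfatc1, a calcium-dependent transcription factor, stood at 830 against 329 CPM and 1082 against 352 CPM. Tcf7, which encodes TCF-1, stood at 514 against 157 CPM and 773 against 368 CPM. The 2 genes lower in both libraries were Id3, a repressor of E proteins, at 14.3 against 55.7 CPM and 19.4 against 73.8 CPM, and Irf4, at 45.4 against 69.5 CPM and 13.6 against 41.3 CPM. Maf was abundant throughout, at 1794 CPM in the LatY136F Tfh-like cells beside 1976 CPM in the remaining cells, and at 1827 beside 1326 CPM in CD45-KO.

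**Figure D2:**
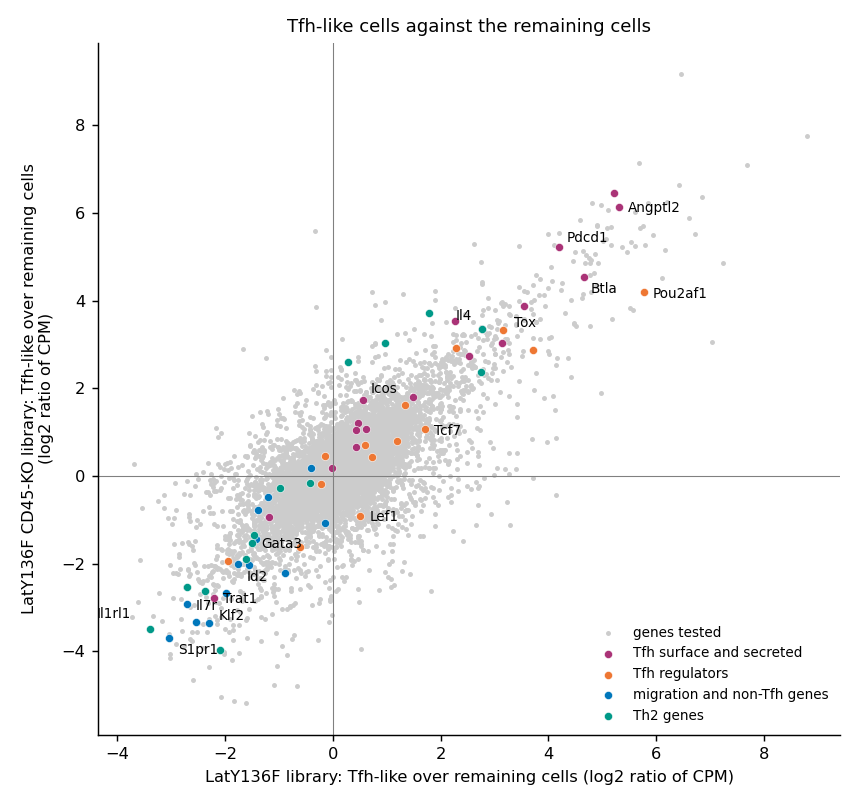
Log2 ratio of CPM in Tfh-like over remaining cells in the LatY136F library (horizontal axis) and the LatY136F CD45-KO library (vertical axis) for 10757 genes, the rule genes left out; genes with no UMI in the Tfh-like cells are drawn at the bound set by 3 counts. Genes of Tfh cells such as Pdcd1 (4.20 and 5.22) and Btla (4.66 and 4.55) lie at the upper right, and Il7r (-2.72 and -2.92) and S1pr1 (-3.05 and -3.68) at the lower left.

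Genes that keep T cells recirculating or that oppose the Tfh programme were low in the Tfh-like cells. Of 13 such genes with enough counts, 0 were at least 1.5-fold higher in both libraries and 10 were lower, with medians of -1.57 and -2.03. S1pr1, the receptor that lets lymphocytes leave lymphoid organs, stood at 62.2 CPM against 515 CPM in LatY136F and at 52.3 against 672 CPM in CD45-KO. In LatY136F cells with at least 3 rule genes its log2 ratio was -4.61 in place of -3.05. Klf2, which drives S1pr1 expression, stood at 158 against 773 CPM and 83.2 against 852 CPM. Selplg, a selectin ligand that Tfh cells lose, stood at 158 against 628 CPM and 92.9 against 586 CPM. Gpr183, a receptor that draws cells to the follicle border, stood at 170 against 455 CPM and 218 against 584 CPM. Id2, which acts against Tfh differentiation, stood at 396 against 1343 CPM and 390 against 1576 CPM. Prdm1, which encodes the Bcl6 antagonist Blimp-1, had few counts, 15 UMIs in 9 LatY136F cells and 19 UMIs in 11 CD45-KO cells.

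Of 14 Th2 genes with enough counts, 7 were lower in the Tfh-like cells of both libraries, 4 were higher and 3 were neither. Gata3, the Th2 master regulator, stood at 364 CPM against 1033 CPM in LatY136F and 343 against 985 CPM in CD45-KO. Il1rl1, the interleukin-33 receptor ST2, stood at 52.6 against 551 CPM and 61.0 against 687 CPM. The 7 lower genes also included Il4ra (20.3 against 106 CPM, and 10.6 against 65.9 CPM) and Nfil3 (58.6 against 161 CPM, and 39.7 against 101 CPM). The 4 that were higher were Il4, Il13, Ccr8 and Areg. Of these, Il4 alone reached 20 CPM in the Tfh-like cells, at 220 against 32.2 CPM in LatY136F and 240 against 23.6 CPM in CD45-KO. Il13 rested on 6 UMIs in each library, and with depth matched its LatY136F log2 ratio turned from 0.97 to -0.12. Ccr8 went from 1.79 to 0.94 in LatY136F and from 3.72 to 2.59 in CD45-KO. Il5 had 0 UMIs in the Tfh-like cells of both.

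Ranked over all genes outside the rule, the 12 highest genes in the Tfh-like cells were Vwde, Cd160, Tshz2, Slc17a6, Coro2b, Angptl2, Cd109, Rgs16, Npnt, Akr1c18, Nrgn and Cdh23. Nrgn, a calmodulin-binding protein known from neurons, was the most abundant of them, at 1959 CPM against 78.0 CPM in LatY136F and 941 against 26.8 CPM in CD45-KO. Akr1c18, a steroid-metabolising reductase, stood at 652 against 22.3 CPM and 824 against 24.8 CPM. Cd160, a ligand-binding partner of the HVEM pathway that Btla also uses, stood at 157 against 2.73 CPM and 195 against 2.59 CPM. Rgs16, a regulator of chemokine receptor signalling, stood at 115 against 3.08 CPM and 244 against 2.76 CPM. Vwde was found mostly in the Tfh-like cells, with 108 UMIs there and 10 in all remaining cells of LatY136F, and with 135 and 17 UMIs in CD45-KO. With depth matched, most of the 12 had lower ratios, and the lowest was that of Nrgn in CD45-KO. Nrgn was at 3.79 and 3.78 in place of 4.65 and 5.13, Rgs16 at 4.48 and 5.26 in place of 5.22 and 6.46, and Slc17a6 in CD45-KO at 4.17 in place of 5.49.

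The 8 lowest genes by the same ranking were Il1rl1, Ccr2, S1pr1, Il7r, Cysltr1, Krt80, Itgae and Rasa3. Ccr2, a receptor for inflammatory chemokines, stood at 87.3 CPM against 710 CPM in LatY136F and 80.3 against 1058 CPM in CD45-KO. Il7r stood at 200 against 1313 CPM and 252 against 1907 CPM. Itgae, the integrin that binds E-cadherin on epithelium, stood at 20.3 against 142 CPM and 8.71 against 100.4 CPM. These genes had log2 ratios between -2.62 and -3.77 in the 2 libraries. With depth matched, Il7r in LatY136F was at -2.12 in place of -2.72 and Il1rl1 at -2.82 in place of -3.39.

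A CD4 antibody was in the stain, and the sources used here do not say if it entered the sort gate. Cd4 UMIs were found in 93.5% of the Tfh-like cells in LatY136F and 87.1% in CD45-KO, beside 66.3% and 65.8% of the remaining cells. Cd8a had 0 UMIs in the Tfh-like cells of either library, which allows up to 1.98% of LatY136F and 1.43% of CD45-KO cells with a UMI. It was rare in the remaining cells too, at 0.140% and 0.0795%. Foxp3, the transcription factor of regulatory T cells, was found in 1 of 184 and 0 of 256 cells, beside 0.723% and 0.231% of the remaining cells. Ikzf2, a factor also used by regulatory T cells, stood at 292 against 16.5 CPM and 379 against 65.4 CPM. Of 8 genes of regulatory T cells with enough counts, 4 were at least 1.5-fold higher in both libraries (Ikzf2, Ctla4, Il1r2, Nt5e) and 0 were lower. With depth matched, Il1r2 was at 1.87 and 2.48 in place of 2.88 and 3.82. At least 3 of 10 NK cell genes were found in 0 Tfh-like cells of either library. They were found in only 0.00737% and 0.0716% of the remaining cells, so the 0 does not set the Tfh-like cells apart. The summed NK level was 61.0 CPM in LatY136F Tfh-like cells beside 92.6 CPM in the remaining cells, and 19.4 beside 64.5 CPM in CD45-KO. Klrb1c, which encodes a lectin-like receptor of NK cells, was higher in both, with 9 and 8 UMIs and log2 ratios of 2.27 and 1.73. Ncr1, Klra8, Klra4 and Cma1 were at 0 in the Tfh-like cells of both libraries and also in the remaining LatY136F cells. At least 3 B-lineage genes were found in 2 cells of each library, 1.09% and 0.781%, beside 0.0590% and 0.294% of the remaining cells. Of 8 B-lineage genes with enough counts, 3 were at least 1.5-fold higher in both libraries (Cd79b, Ms4a1 and Pax5) and 0 were lower, beside 14.4% and 8.33% of all genes. With both intervals also above 0, 2 were higher. Cd79b and Ms4a1 were each found in only 2 LatY136F Tfh-like cells and 1 CD45-KO one. One of the 3, Pax5, had 16 UMIs in 9 LatY136F Tfh-like cells and 5 UMIs in all remaining ones. In CD45-KO it had 11 UMIs in 7 Tfh-like cells and 36 UMIs in the remaining cells. The summed B-lineage level was 218 CPM in LatY136F Tfh-like cells beside 117 CPM in the remaining cells, and 376 beside 442 CPM in CD45-KO. Trdc, a gene of gamma delta T cells, was found in 6.52% of LatY136F Tfh-like cells and 4.11% of the remaining cells. In CD45-KO these shares were 1.17% and 1.69%.

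Cell cycle genes were detected in more of the Tfh-like cells, but their level was not higher once depth was matched. At least 5 of 20 cell cycle genes were found in 51 LatY136F Tfh-like cells (27.7%) and 36 CD45-KO ones (14.1%), beside 8.88% and 2.47% of the remaining cells. All 20 genes had enough counts, and 9 of them were at least 1.5-fold higher in both libraries, with medians of 0.54 and 1.21. With the remaining cells weighted to the depth of the Tfh-like cells, the medians turned to -0.54 and -0.17, and with the rule applied after thinning they were -1.22 and -0.60. The median over cells of the summed cell cycle level was 965 CPM in Tfh-like and 1017 CPM in remaining LatY136F cells, and 678 and 711 CPM in CD45-KO.

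Within the Tfh-like cells, those with a UMI of Mki67, a protein of dividing cells, were 49 in LatY136F and 79 in CD45-KO. Cells with Mki67 were deeper, with medians of 5473 and 3261 UMIs in LatY136F and of 4407 and 3186 UMIs in CD45-KO, and deeper cells can pass the rule with a lower level of its genes per UMI, so rule genes are not compared here. Among genes outside the rule, Pdcd1 was at 251 CPM in LatY136F cells with Mki67 and 486 CPM in those without, and at 363 and 564 CPM in CD45-KO. Btla was at 503 and 805 CPM, and at 613 and 868 CPM. Tox was at 293 and 456 CPM, and at 373 and 602 CPM. The intervals of these 3 ratios lay below 0 on the log2 scale in both libraries, and those of Pou2af1 included 0 in both. The part of depth and of the rule in these differences was not tested.

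Of 20 proximal T cell receptor signalling genes, 7 were at least 1.5-fold higher in the Tfh-like cells of both libraries, 2 were lower and 11 were neither, beside 14.4% and 8.33% of all genes. Zap70, the kinase that binds the phosphorylated receptor, stood at 491 CPM against 201 CPM in LatY136F and 514 against 168 CPM in CD45-KO. Ptpn22, a phosphatase that restrains receptor signalling, stood at 387 against 176 CPM and 557 against 200 CPM, and Lck at 1027 against 673 CPM and 1109 against 584 CPM. Grap2, the adaptor GADS that links LAT to SLP-76, was lower, at 34.7 against 110 CPM and 27.1 against 109.6 CPM. Early genes induced by the receptor were mixed: of 20, 4 were higher (Nr4a2, Nr4a3, Egr2, Rel) and 9 were lower in both libraries. Egr2 stood at 72.9 against 16.3 CPM and 65.8 against 16.9 CPM, while Fos stood at 86.1 against 216 CPM and 101 against 315 CPM. Of 13 glycolysis genes, 8 were at least 1.5-fold higher in both libraries and 1, Slc2a3, was lower. Gapdh stood at 1930 against 955 CPM and 1635 against 723 CPM. A list of inhibitory receptors and related genes, which also holds the regulator Tox counted above, had 6 higher genes of 9. Among them was Lag3, at 102 against 9.23 CPM and 102 against 5.10 CPM. The list had 1 lower gene, Entpd1, at 72.9 against 302 CPM and 46.5 against 233 CPM.

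UMIs of the cytokine genes Il21, Il4 and Xcl1 were found in some of the Tfh-like cells. The 250 bases before the RefSeq start of each (GRCm38.p6, all on the minus strand, written 5′ to 3′) are shown as a description. Capitals mark GGAAA on either strand (TTTCC on the printed one), the core letters that NFAT factors bind.

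Il21 (chr3:37232637-37232886): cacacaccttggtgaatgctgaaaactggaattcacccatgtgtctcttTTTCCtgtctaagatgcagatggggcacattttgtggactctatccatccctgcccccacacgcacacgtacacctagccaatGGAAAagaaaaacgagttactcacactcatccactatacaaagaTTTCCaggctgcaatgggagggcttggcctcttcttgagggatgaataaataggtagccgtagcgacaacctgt

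Il4 (chr11:53618666-53618915): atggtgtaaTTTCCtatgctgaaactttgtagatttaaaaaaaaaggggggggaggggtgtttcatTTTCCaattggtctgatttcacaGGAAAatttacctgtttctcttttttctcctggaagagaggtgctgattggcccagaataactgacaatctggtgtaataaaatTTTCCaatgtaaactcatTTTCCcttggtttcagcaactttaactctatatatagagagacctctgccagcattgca

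Xcl1 (chr1:164935523-164935772): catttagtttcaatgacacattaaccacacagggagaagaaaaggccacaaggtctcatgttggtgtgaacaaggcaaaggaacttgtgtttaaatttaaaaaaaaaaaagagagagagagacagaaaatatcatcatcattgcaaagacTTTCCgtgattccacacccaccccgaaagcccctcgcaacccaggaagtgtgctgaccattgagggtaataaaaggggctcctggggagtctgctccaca

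The letters GGAAA occurred 5 times in the Il4 window, 3 times in the Il21 window and 1 time in the Xcl1 window. At least 1 match was present in 55.6% of 32851 promoter windows of the same length. The AP-1 letters TGANTCA and the STAT letters TTCNNNGAA, on either strand, occurred 0 times in these 3 windows and in 6.75% and 7.02% of all windows. A match is a description of the letters only.

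Il21 was carried by 68 LatY136F Tfh-like cells (37.0%, interval 30.0 to 44.4%) with 157 UMIs in all, and by 124 CD45-KO ones (48.4%, 42.2 to 54.7%) with 228 UMIs. Most carriers held little of it: 36 of the 68 and 73 of the 124 had 1 UMI, and the fullest cells held 22 and 7 UMIs. Since Il21 is a rule gene, these shares depend on the rule, and with at least 2 of the other 5 genes required they were 28.8% and 35.9%. In the remaining cells Il21 was found in 0.398% of LatY136F and 0.358% of CD45-KO cells. Thinned to 1000 UMIs, the shares were 12.6% against 0.175% in LatY136F and 21.7% against 0.213% in CD45-KO. Cells with no CD3 UMI and at least 3 B-lineage or myeloid genes, which should lack Il21, held it in 0 of 9 and 0 of 39 cells. Their medians were 3295 and 5259 UMIs, and the upper limits of the shares are 33.6% and 9.03%.

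Il4 was carried by 75 LatY136F Tfh-like cells (40.8%, 33.6 to 48.2%) with 184 UMIs and by 108 CD45-KO ones (42.2%, 36.1 to 48.5%) with 248 UMIs. The share in the remaining cells was 5.57% and 4.24%. Thinned to 1000 UMIs, the shares were 15.3% against 2.36% in LatY136F and 17.4% against 2.10% in CD45-KO. The cells of other lineages held Il4 in 0 of 9 and 1 of 39 cells. The fullest Il4 carriers held 24 and 12 UMIs, and 9 and 14 cells had at least 5. Il4 and Il21 were found together in 32 LatY136F cells, which is 47.1% of the Il21 carriers and 42.7% of the Il4 carriers. In CD45-KO they were together in 53 cells, 42.7% of the Il21 carriers and 49.1% of the Il4 carriers. Each share lay near that of all Tfh-like cells of its library with the other cytokine.

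Il3, a growth factor for myeloid and mast cells, was all but missing. The LatY136F library held 105 UMIs of Il3 in 8 kept cells, of which 98 were in a single cell outside the Tfh-like group. That cell had 1 rule gene (Il21), 86 UMIs of Il4 and 7391 UMIs in all. The other 7 cells had 1 UMI each, and 1 of them was Tfh-like, with 7 UMIs of Il4, 1 of Il21 and 2 of Xcl1. In CD45-KO, 0 of 256 Tfh-like cells had a UMI, which allows up to 1.43%.

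Xcl1, the chemokine lymphotactin, was carried by 6 LatY136F Tfh-like cells with 32 UMIs (3.26%, 1.21 to 6.96%) and by 35 CD45-KO ones with 251 UMIs (13.7%, 9.71 to 18.5%). The remaining cells held it in 0.0590% and 0.318%, and the cells of other lineages in 0 of 9 and 0 of 39. Thinned, the shares in Tfh-like cells were 1.64% and 7.51%. A single CD45-KO cell held 86 of the 251 UMIs, and the 5 fullest held 63.7% of them. Eomes, a transcription factor of cytotoxic and memory T cells, was carried by 10 LatY136F cells with 34 UMIs (5.43%, 2.64 to 9.77%) and by 21 CD45-KO cells with 147 UMIs (8.20%, 5.15 to 12.3%), beside 3.69% and 3.07% of the remaining cells. Thinned, the shares were 3.83% and 4.35%. Of the carriers, 3 in LatY136F and 14 in CD45-KO had at least 5 UMIs. With at least 3 rule genes required, Eomes was found in 4.64% of the CD45-KO Tfh-like cells, and with the rule applied after thinning in 4.35%.

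Xcl1 and Eomes were often found in the same Tfh-like cells, and Il4 and Eomes seldom. In CD45-KO, 16 cells held both Xcl1 and Eomes, 45.7% of the Xcl1 carriers and 76.2% of the Eomes carriers. In LatY136F 3 cells held both, 50% and 30%. Il4 was found with Eomes in 1 LatY136F cell and in 0 of the 21 CD45-KO Eomes carriers. Il4 was found with Xcl1 in 2 LatY136F and 5 CD45-KO cells, the latter 14.3% of the Xcl1 carriers.

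**Figure D3:**
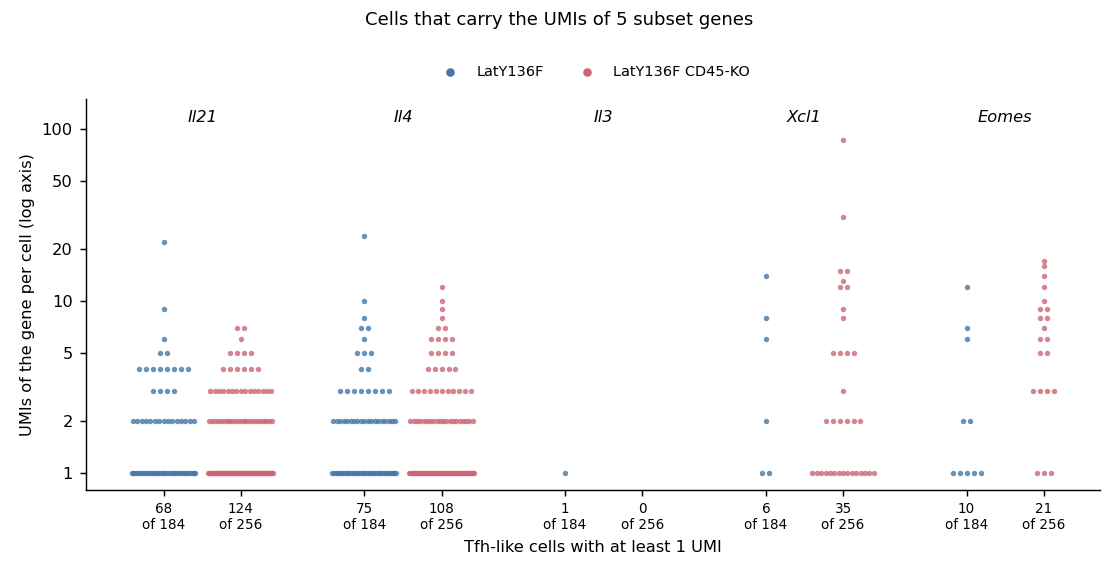
UMIs of Il21, Il4, Il3, Xcl1 and Eomes (log axis) in each Tfh-like cell with at least 1 UMI of the gene, by library; each point is a cell and the labels give carriers of all Tfh-like cells. Most Il21 and Il4 carriers have 1 or 2 UMIs, while the CD45-KO carriers of Xcl1 and Eomes reach 86 and 17 UMIs.

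Tfh-like cells with an Eomes or Xcl1 UMI (13 in LatY136F and 40 in CD45-KO) also held some genes of cytotoxic cells. Nkg7, Ctsw, Gzmk and Crtam were picked from 21 cytotoxic and Th1 genes after their values were seen. How many of the 21, or of all genes, were higher in these cells is not given. In CD45-KO, Nkg7, a granule membrane protein, stood at 220 CPM in these cells and 3.56 CPM in the other Tfh-like cells, and in LatY136F at 151 and 3.90 CPM. The LatY136F values of Nkg7 rest on 13 UMIs in 8 Tfh-like cells. Ctsw, a protease of cytotoxic cells, stood at 272 and 15.4 CPM in CD45-KO and at 151 and 22.1 CPM in LatY136F. Gzmk, a granzyme, had 28 UMIs in the 40 CD45-KO cells and 0 in the other 216, and 4 and 0 UMIs in LatY136F. Crtam, an adhesion receptor induced with Eomes, had 23 and 2 UMIs in CD45-KO and 3 and 1 UMIs in LatY136F. Tigit, an inhibitory receptor, stood at 298 and 123 CPM in CD45-KO and at 257 and 117 CPM in LatY136F. Tcf7 was lower in the same cells, at 518 and 831 CPM in CD45-KO and 272 and 535 CPM in LatY136F, as was Pou2af1, at 94.2 and 170 CPM and at 45.3 and 170 CPM. The intervals for Pdcd1, Tox and Cd200 included 0 in both libraries. In CD45-KO, Il7r stood at 36.6 and 300 CPM, Il4 at 47.1 and 284 CPM and Cd4 at 691 and 1262 CPM. In LatY136F these 3 had intervals that included 0 on the log2 scale. Of 21 cytotoxic and Th1 genes, 8 had 0 UMIs in all LatY136F Tfh-like cells, among them Prf1 and Ccl4. In CD45-KO, 3 had 0 UMIs (Gzma, Prf1 and Ccl4) and Gzmb had 1. The CD45-KO cell with 86 Xcl1 UMIs had 2 rule genes and 9370 UMIs in all, beside a Tfh-like median of 3519. In LatY136F the cell with 14 had 3 rule genes and 6528 UMIs. The part of depth and of the rule in the differences between carriers and other cells was not tested.

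Of the 20 receptor-induced early genes, 6 had intervals above 0 in the Il4 carriers of both libraries (Nr4a1, Nr4a3, Egr1, Egr2, Nfkbid and Rel), 1 below 0 (Dusp2) and 13 neither, among them Fos, Junb and Ier2. Over all 8387 genes outside the rule with enough counts, 0.644% lay above 0 in both libraries and 0.644% below. The LatY136F value of Nr4a3 rests on 8 UMIs in 3 Tfh-like cells, and the intervals do not cover spread between cells. Nr4a1, an orphan nuclear receptor induced within hours of receptor engagement, stood at 66.6 CPM in LatY136F Il4 carriers and 4.49 CPM in the other Tfh-like cells, and at 96.0 and 27.8 CPM in CD45-KO. Egr2 stood at 113 and 38.1 CPM in LatY136F and at 103 and 36.5 CPM in CD45-KO. Nfkbid, an inhibitor of nuclear factor kappa B family, stood at 115 and 49.3 CPM, and at 251 and 59.1 CPM. Outside that list, Cd40lg, Tnfsf8 and Btla were also higher in the carriers of both libraries, each with an interval above 0. For Egr3, which stood at 72.0 and 19.1 CPM in CD45-KO, the LatY136F interval included 0 (log2 ratio 0.33, -1.05 to 1.72). Ctsw and Nkg7 were lower in Il4 carriers of both libraries. Carriers had medians of 4187 UMIs in LatY136F and 3701.5 in CD45-KO, beside 3165 and 3284.5 in the others. The part of depth in the differences between Il4 carriers and the others was not tested.

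The split by Il21 is tied to the rule, since a cell with Il21 needs only 1 other rule gene and a cell without it needs 2, so lower values of Tfh genes in the carriers are not read here. Ccl1, a chemokine for Ccr8-bearing cells, stood at 317 CPM in CD45-KO Il21 carriers and 28.6 CPM in the other Tfh-like cells, and at 101 and 34.0 CPM in LatY136F, although 13 CD45-KO cells held all 186 of its UMIs. Cd200 stood at 364 and 241 CPM in CD45-KO and 276 and 183 CPM in LatY136F, and Csf1, the macrophage growth factor, at 517 and 278 CPM and at 380 and 281 CPM.

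**Figure D4:**
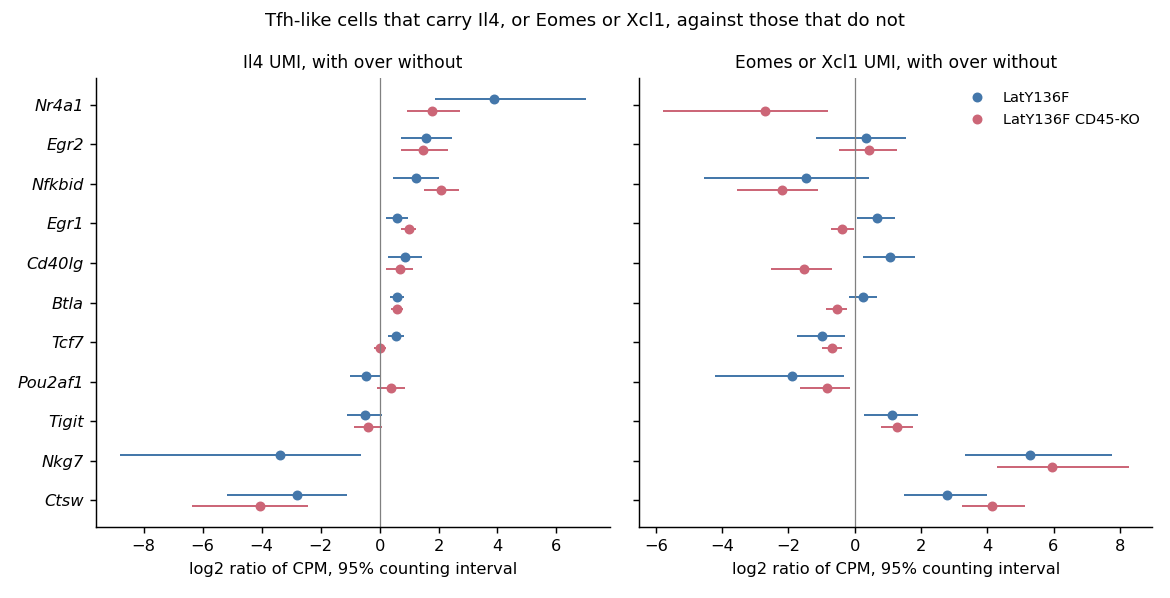
Log2 ratio of CPM, with 95% counting interval, in Tfh-like cells with over those without an Il4 UMI (left) and with over those without an Eomes or Xcl1 UMI (right), for LatY136F and CD45-KO; genes at 0 in either set are not drawn. Nr4a1, Egr2 and Nfkbid lie above 0 for Il4 in both libraries, and Nkg7 and Ctsw lie above 0 for Eomes or Xcl1 and, where drawn, below 0 for Il4.

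Between the genotypes, Tfh-like cells made up 1.34% (1.15 to 1.54%) of the LatY136F cells and 1.99% (1.76 to 2.25%) of the CD45-KO cells. With every cell thinned to 1000 UMIs before the rule was applied, the shares were 0.638% (85 of 13313) and 1.11% (138 of 12475). With at least 3 rule genes they were 0.757% and 1.18%, and with at most 10% mitochondrial counts 1.09% and 2.29%. The CD45-KO share was the higher under each of these settings. A difference between mice or between sorts cannot be told apart from a difference between genotypes.

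The list of mostly surface and secreted genes had 17 with enough counts in the Tfh-like cells. Of these, 1 was at least 1.5-fold higher in CD45-KO (the intracellular Rgs16, 115 and 244 CPM) and 1 lower (Trat1, 221 and 77.4 CPM). The median log2 ratio was 0.26. Smaller differences with intervals above 0 were seen for Icos (0.41), Cd200 (0.43), Cd84 (0.36), Tnfsf8 (0.28) and Izumo1r (0.24), and Gpm6b was below 0 (-0.45). Over all 8394 genes with enough counts, 11.3% were at least 1.5-fold higher in CD45-KO and 10% lower, and the median log2 ratio was 0.02. Of 14 Tfh regulators, Tcf7 was higher (log2 ratio 0.59, interval 0.42 to 0.76), and Irf4 (-1.75) and Batf (-0.67) were lower, with a median of 0.08. Of 20 proximal receptor signalling genes, 0 passed 1.5-fold in either direction, with a median of 0.11 and values from -0.45 for Rasgrp1 to 0.52 for Ptpn22. Pdcd1 differed by 0.30 (0.09 to 0.50) and Il4 by 0.13 (-0.16 to 0.41). Klf2, lower in Tfh-like cells as such, was lower still in the CD45-KO ones, at 83.2 beside 158 CPM (-0.92, -1.33 to -0.52), while in the remaining cells its log2 ratio was 0.14.

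Of the 12 highest and 12 lowest genes between the Tfh-like cells of the libraries, Ifi208, an interferon-inducible member of the PYHIN family, had 2 UMIs in 2 LatY136F cells and 76 UMIs in 58 CD45-KO cells. It differed in the remaining cells as well, at 16.2 and 98.3 CPM. Iigp1, an interferon-inducible GTPase, had 16 UMIs in 9 LatY136F cells and 107 UMIs in 33 CD45-KO cells (log2 ratio 2.44, 1.67 to 3.29), beside 1.74 and 2.73 CPM in the remaining cells. Tgtp2, another interferon-inducible GTPase outside the list, stood at 27.5 and 96.8 CPM, and Ms4a6c, a membrane-spanning protein, at 17.9 and 77.4 CPM. Of 26 interferon genes with enough counts, 5 were higher and 1 (Ifit1) lower, with a median of 0.12, beside 11.3% and 10% of all genes.

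Among receptor-induced genes, 9 of 20 were at least 1.5-fold higher in the CD45-KO Tfh-like cells and 2 lower, with a median of 0.47. The 9 were Nr4a1, Nr4a2, Nr4a3, Egr1, Egr3, Fosb, Jun, Nfkbid and Rel. The same list had a median of 0.38 in the remaining cells, where 6 were higher and 1 lower. Over all genes of the remaining cells, 10.1% were at least 1.5-fold higher in CD45-KO and 8.85% lower. Heat shock genes, which cell handling also induces, had 2 of 9 higher and 0 lower in the CD45-KO Tfh-like cells with a median of 0.13, and 5 of 10 higher and 0 lower in the remaining cells with a median of 0.55. Their part in the difference of the receptor-induced list was not tested. Nr4a3 stood at 9.57 CPM (8 UMIs in 3 cells) in LatY136F and 65.8 CPM (68 UMIs in 17 cells) in CD45-KO. Egr1 stood at 310 and 526 CPM, Nfkbid at 80.1 and 144 CPM, and Rel at 84.9 and 138 CPM. The 2 lower genes were Irf4 and Myc, the latter with 21 and 16 UMIs.

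Among cytotoxic and Th1 genes of the Tfh-like cells, 8 of 10 were higher in CD45-KO and 1 lower, with a median of 1.63. Over all genes, 11.3% were higher and 10% lower. In the remaining cells 12 of 20 were higher and 3 lower, with a median of 0.82. In the Tfh-like cells the median was 0.17 with the cells that had an Eomes or Xcl1 UMI left out. It was 0.71 with at least 3 rule genes, 0.51 at the stricter mitochondrial limit and 0.40 with the rule applied after thinning. Xcl1 stood at 38.3 and 243 CPM (log2 ratio 2.67, 2.13 to 3.25), a value that was 0.26 with at least 3 rule genes and -0.11 with the rule applied after thinning. Eomes stood at 40.7 and 142 CPM (1.81, 1.26 to 2.39), and the same settings gave 0.56 and 0.31. The lower genes were Gzma, with 33 UMIs in 10 LatY136F cells and 0 UMIs in CD45-KO, and, short of the count minimum, Gzmb, with 18 UMIs in 13 cells and 1 UMI in 1 cell. The remaining cells showed the same direction, at 82.5 and 21.3 CPM for Gzma and 131 and 24.2 CPM for Gzmb.

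Some other genes higher in CD45-KO rested on few cells. Ccl1 stood at 65.8 and 180 CPM (log2 ratio 1.45), but the ratio was -2.71 with at least 3 rule genes, -1.69 with the rule applied after thinning and -0.60 with Il21 left out of the rule. Spp1, which encodes osteopontin, had 24 UMIs in 11 cells and 103 UMIs in 23 cells (1.80), and 0.03 with at least 3 rule genes. Slpi had 0 and 56 UMIs, the latter in 5 cells. Its log2 ratio, with 3 counts in place of 0, was 3.92 (interval from 3.57), and 0.68 with cells of B-lineage or myeloid genes left out. Sema7a (15.5 and 59.0 CPM) and Kbtbd2 (19.1 and 69.7 CPM) were spread over more CD45-KO cells, 34 and 56.

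Genes lower in the CD45-KO Tfh-like cells included Lgals3, which encodes galectin-3, at 93.3 and 15.5 CPM (log2 ratio -2.59, -3.47 to -1.80). Anxa2, a membrane-binding annexin, stood at 209 and 83.2 CPM, Nrgn at 1959 and 941 CPM, Trat1 at 221 and 77.4 CPM, Moxd1 at 90.9 and 23.2 CPM and Cysltr1 at 82.5 and 28.1 CPM. Lmo4, a LIM domain transcription cofactor, stood at 90.9 and 32.9 CPM in the Tfh-like cells, and in the remaining cells at 6.85 and 8.47 CPM. Cish, a feedback inhibitor of cytokine receptors, stood at 64.6 and 19.4 CPM, and Fabp5, a fatty acid carrier, at 84.9 and 23.2 CPM. The log2 ratio of Fabp5 was -0.58 and that of Cish -1.02 with cells of at least 5 cell cycle genes left out, beside -1.87 and -1.74. Camk2b, Cmtm7 and Rrm2 completed the 12 lowest. Rrm2, a subunit of the enzyme that makes deoxynucleotides, stood at 135 and 52.3 CPM.

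Of 20 cell cycle genes, 7 were at least 1.5-fold lower in the CD45-KO Tfh-like cells and 0 higher, with a median of -0.49. The median was -1.29 with the deepest 1% of cells left out and -0.22 with cells of at least 5 cell cycle genes left out. In the remaining cells 18 of the 20 were lower, with a median of -1.27. Glycolysis genes had a median of -0.36 in the Tfh-like cells, with 2 of 13 lower and 0 higher. Over all genes of the Tfh-like cells, 10% were lower and 11.3% higher. Cells with at least 5 of the 20 cell cycle genes were 27.7% of LatY136F and 14.1% of CD45-KO Tfh-like cells. Cells with any Mki67 UMI went the other way before thinning, at 26.6% and 30.9%. Thinned, these shares were 13.1% in LatY136F and 10.7% in CD45-KO, with intervals that overlapped. At least 5 Mki67 UMIs were found in 21 of 184 LatY136F and 20 of 256 CD45-KO Tfh-like cells. In the summed counts, fewer dividing cells and less transcript per dividing cell cannot be told apart, and the part of each was not tested.

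**Figure D5:**
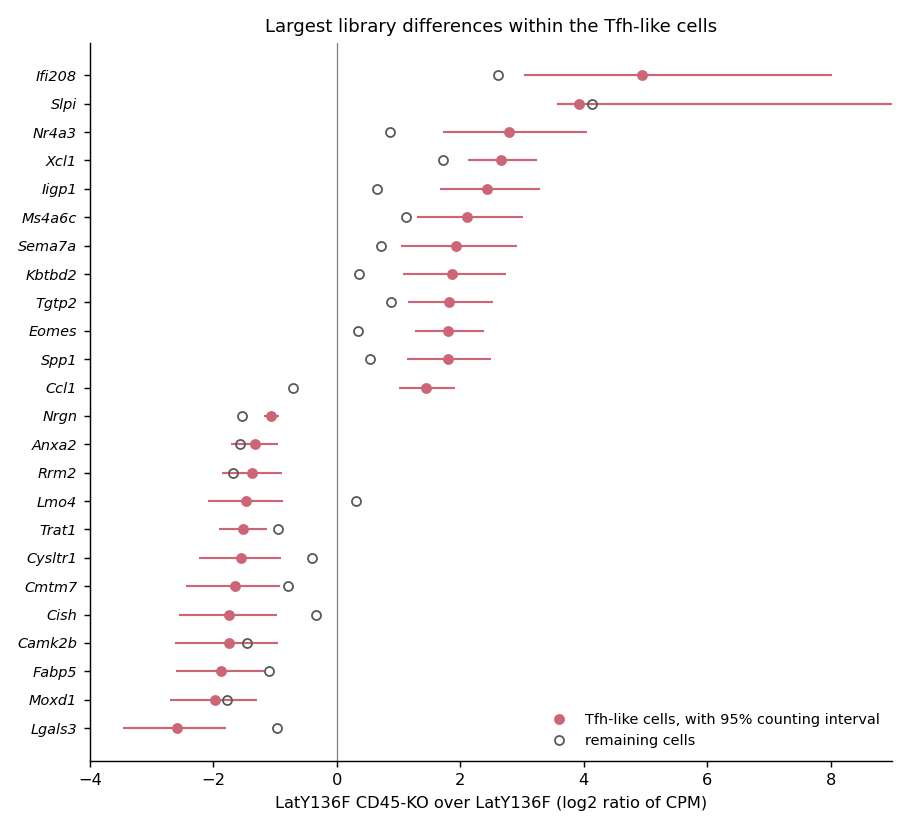
Log2 ratio of CPM, CD45-KO over LatY136F, for the 12 highest and 12 lowest genes within the Tfh-like cells (filled, with 95% counting interval) and for the same genes in the remaining cells (open). Ifi208 and Slpi differ in both sets of cells, Slpi with 0 UMIs in LatY136F Tfh-like cells is drawn at its lower bound, and Lmo4 and Ccl1 lie on opposite sides of 0 in the 2 sets.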

How the data were processed

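There were 2 libraries, 1 per genotype, made with the BD Rhapsody whole transcriptome system, which counts transcripts by molecular identifiers. The deposited tables hold raw UMI counts per cell and gene. BD pipeline version 1.9.1 produced them, per the file headers, whereas version 2.0 stands in the series text beside Seurat 4.04. GRCm39 is the build in the submitters' processing notes. Gene coordinates are on GRCm38, and promoter windows are from RefSeq (GRCm38.p6).

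Kept cells had no fewer than 200 genes and no more than 25% mitochondrial counts, a filter that removed 28 and 11 cells. No doublet caller was run. UMI counts were summed over the Tfh-like and the remaining cells of each library and scaled to CPM, with Python 3.11.15, numpy 2.4.6, scipy 1.17.1 and pandas 2.3.3. Ratios carry exact conditional binomial intervals and shares carry Clopper-Pearson intervals at 95%. A floor of 3 counts stands for 0 in ratios. A gene counted as higher or lower past 1.5-fold, among genes with at least 20 UMIs over all kept cells of each library (against the remaining cells) or over the Tfh-like cells of both libraries (between genotypes). Ratios were checked on simulated counts.

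Named genes are the rule genes, Ptprc and Lat, the genes that mark subsets, list genes with at least 20 CPM, the 12 highest and 8 lowest against the remaining cells and the 12 highest and 12 lowest between genotypes, with at least 50 CPM, ranked by the interval bound nearest 0. Left out of the ranks were genes of antigen receptors, mitochondria, ribosomes, haemoglobin, sex-linked genes and predicted genes. Genes named below 20 CPM, and those set out for carriers of a cytokine, were chosen after their values were seen. The members and lists were chosen with earlier results of these data known. Alternatives were 14, of which 3 were chosen after seeing the data, as was the class of cells of other lineages.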

Additional observations from a re-analysis of the deposited data

Results flagged for a closer look

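For 5 genes named here, the counting intervals of the ratio between Tfh-like and remaining cells lay on opposite sides of 0 in the 2 libraries. The share of all genes that did so is not given. The difference between the libraries was not tested, since each genotype is 1 library. Lef1, a transcription factor of the same family as Tcf7, had a log2 ratio of 0.51 in LatY136F and -0.91 in CD45-KO. Maf, which drives Il21 and Il4 in helper T cells, had -0.14 and 0.46. With depth matched, Maf was above 0 in both libraries, at 0.08 and 0.62, whereas Lef1 was at 0.83 and -0.53. Nab2, a corepressor of Egr factors, had -0.39 and 0.50. Kif23, a motor protein of cell division, had -0.55 and 0.87. Hspa8, a constitutive heat shock protein, had 0.25 and -0.094.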

How the results depend on the processing

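No paired analysis was possible because each genotype is 1 library. With at least 3 rule genes, the Tfh-like share was 0.757% in LatY136F and 1.18% in CD45-KO, Il21 was found in 45.2% of LatY136F cells, Il4 in 50% and 50.3%, Il3 in 0% of LatY136F cells and Eomes in 4.64% of CD45-KO cells. With at most 10% mitochondrial counts the shares were 1.09% and 2.29%. With the rule applied after thinning they were 0.638% and 1.11%, Il3 was at 0% in LatY136F, and in CD45-KO Il4 was at 50% and Eomes at 4.35%. Without Il21 in the rule, the CD45-KO share was 1.61%, Il21 was found in 28.8% and 35.9%, and Il3 in 0% of LatY136F cells, as with the deepest 1% of cells left out. With at least 5 counts per gene, 1631 genes were higher and 1476 lower in CD45-KO.

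Of 1334 other values under the alternatives, 10 changed sign from a main value past 1.5-fold. The log2 ratio of Ccl1 between genotypes was -2.71 with at least 3 rule genes, -1.69 after thinning and -0.60 without Il21, and that of Xcl1 was -0.11 after thinning. Against the remaining cells, the LatY136F median of B-lineage genes was -0.23 with at least 3 rule genes, -0.59 at the mitochondrial limit and -0.62 without cells of B-lineage or myeloid genes. The CD45-KO median of cytotoxic genes was -0.55 at the mitochondrial limit, and that of cell cycle genes -0.60 after thinning and -0.17 with depth matched. The cause was not tested. Genes with few UMIs per cell are limited by depth.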
